A study of Mus musculus with 6 samples.

Results

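The genes that encode the proteins of the cytosolic ribosome were followed in gastrocnemius (Gas) muscle of wild-type (WT) mice and of miR-92b knockout (M92KO) mice. Members were chosen by symbol alone, as every row of the count table named Rpl or Rps with a number and up to 2 letters, together with Rplp0, Rplp1, Rplp2 and Rpsa. This gave 84 of 34714 rows, of which 52 belong to the large and 32 to the small ribosomal subunit. The count filter kept 81 members (49 large, 32 small) among 15788 genes tested. The rule leaves out names with a hyphen, which mark pseudogenes, and it also leaves out ribosomal proteins with other names, such as Fau and Rack1, and the paralogues Rpl22l1 and Rpl7l1, which are given beside the members below.

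RNA was sequenced from 3 WT and 3 M92KO mice, all 8 weeks old and untreated, with 1 library for each mouse. The M92KO mice were bought as a global knockout made on C57BL/6JGpt and lack miR-92b in every tissue, while the WT mice were age-matched C57BL/6 animals. The sources do not say that they were littermates, so the deletion and the origin of the mice cannot be told apart. According to the study's methods the mice were male. miR-92b itself was not analysed here. The depth of the WT libraries was 38246649 to 48209846 counts, and that of the M92KO libraries 33160508 to 37019640. The 10 skeletal muscle fibre markers summed to between 139500 and 157960 CPM (counts scaled to the library size, here with sizes corrected by edgeR's TMM method) in WT and between 138540 and 149230 CPM in M92KO libraries, so the label of the tissue was borne out in each library. A bulk library cannot tell fewer cells of a type from less RNA per cell.

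A cytosolic ribosome carries 1 copy of nearly every ribosomal protein, and the small subunit reads the mRNA while the large subunit joins the amino acids and holds the exit tunnel for the new chain. Surplus ribosomal protein that finds no partner is degraded, and free Rpl5 and Rpl11 bind Mdm2 and thereby raise p53. The genes lie far apart but are controlled together. Their mRNAs begin with a run of pyrimidines, the terminal oligopyrimidine (TOP) tract, through which mTOR and Larp1 set how well they are translated, so that their mRNA level and their protein output can part. Skeletal muscle is known for a ribosomal protein of its own, Rpl3l, which takes the place of Rpl3 in adult muscle and heart.

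The starts of the genes show the feature that the family shares beyond its name. The 84 members lie on 19 chromosomes, with 4 on the X. Promoters in RefSeq (GRCm38.p6) were matched for 64 members, and a tract, taken here as a C within 10 bases of the start followed on the same strand by at least 4 more C or T, was found in 40 of them (62.5%), against 33.3% of 27024 genes. The motif CCGGAAG, the core that ETS factors bind, was in the 250 bases before or 50 bases after the start, on either strand, in 39.1% of the members and 9.93% of all genes. The letters ATGGCG, the core of YY1 sites, were in 29.7% against 10.2%, and the letters TATAAA in 10.9% against 15.7%. GGGCGG, the letters of a GC box, was in 57.8% of the members and 38.2% of all genes. A match describes letters and not a site in use. Below are 15 bases on each side of the start for members described below, 5′ to 3′, with the tract in capitals. They were picked to show 7 starts with a tract and 4 without. They also show that Rps27 and its near copy Rps27rt share the bases after the tract. Only annotated starts were searched, so a start without a tract here does not show that the mRNA lacks one.
Rps18, chr17:33955651-33955680, minus strand: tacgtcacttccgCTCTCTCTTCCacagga
Rps6, chr4:86857353-86857382, minus strand: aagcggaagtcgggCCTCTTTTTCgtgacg
Rplp2, chr7:141447636-141447665, plus strand: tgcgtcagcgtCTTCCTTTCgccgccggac
Rpl7a, chr2:26910792-26910821, plus strand: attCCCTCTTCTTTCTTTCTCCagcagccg
Rps27, chr3:90213634-90213663, minus strand: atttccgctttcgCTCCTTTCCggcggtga
Rps27rt, chr9:114982725-114982754, minus strand: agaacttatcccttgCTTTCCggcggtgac
Rpl3l, chr17:24727811-24727840, plus strand: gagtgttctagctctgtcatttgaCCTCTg
Rplp0, chr5:115559452-115559481, plus strand: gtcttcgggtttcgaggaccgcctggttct
Rpl23, chr11:97782425-97782454, minus strand: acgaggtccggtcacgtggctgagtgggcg
Rpl36al, chr12:69184053-69184082, minus strand: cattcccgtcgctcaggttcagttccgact
Rpl41, chr10:128549154-128549183, minus strand: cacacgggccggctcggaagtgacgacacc
The muscle paralogue Rpl3l has only a short tract, which begins after the annotated start, and the 3 starts of the housekeeping genes Rps18, Rps6 and Rplp2 have runs of pyrimidines that cover it.

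The family made up nearly the same share of the RNA in both genotypes. Together the 84 members took 1.158%, 1.147% and 1.155% of the counts of the WT libraries and 1.305%, 1.122% and 1.134% of the counts of the M92KO libraries. The mean was 1.15% ± 0.0057 (SD, n = 3) in WT and 1.19% ± 0.102 (SD, n = 3) in M92KO muscle. Both other M92KO libraries lay below all WT libraries, and only M92KO library 1 lay above them, so the mean of M92KO muscle without it was 1.13% ± 0.0088 (SD, n = 2).

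M92KO library 1 stood apart in nearly every member. When each gene's log2 CPM was set against its own mean over the 6 libraries, the median deviation of the 81 tested members was 0.17 in that library, between -0.05 and -0.01 in the WT libraries and -0.04 and -0.01 in M92KO libraries 2 and 3. In library 1, 79 of 81 members lay above their own mean, 75 had their highest value there and 0 had their lowest. The members are short, with a median transcript of 777.5 bases (2814 bases over the whole table of tested genes), and 57 of the 81 are under 1000 bases. In the same library, 1174 other genes under 1000 bases had a median deviation of 0.13, and 6778 genes of at least 3000 bases one of -0.08. When the fit corrected every library for its dependence on GC content and length, the median log2 fold change of the members between the genotypes, given below as 0.07, was 0.01. Values without this library therefore stand beside the results whose direction or count of calls it changes.

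**Figure D1:**
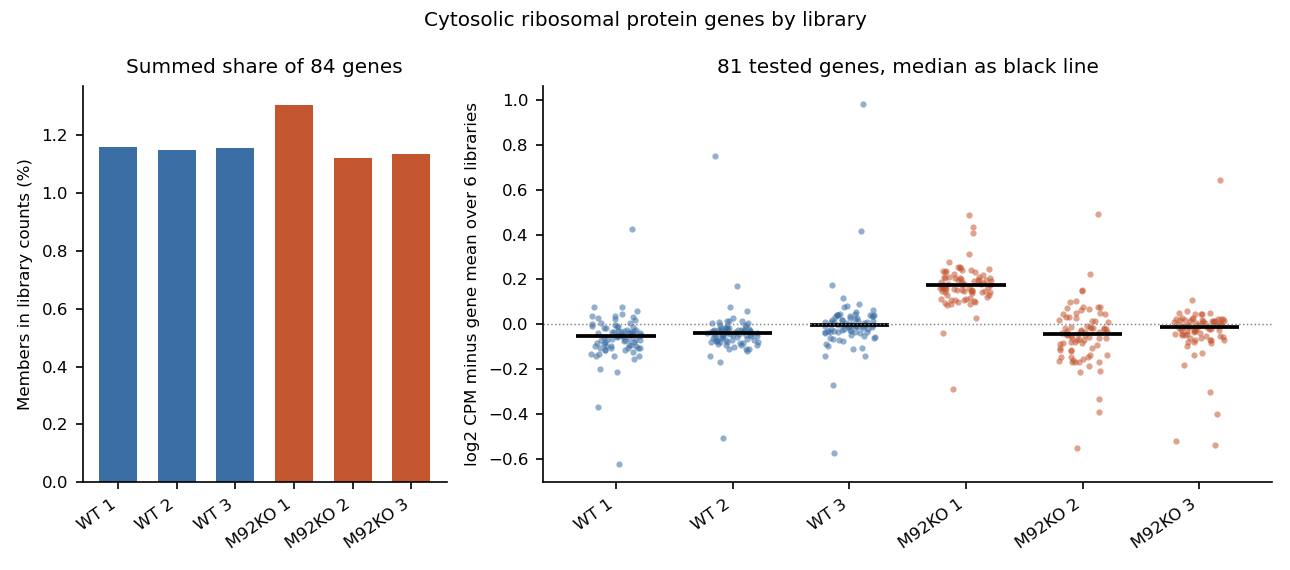
The left panel plots the summed share of the 84 ribosomal protein genes in the counts of each library (%), and the right panel plots, for each of the 81 tested genes (points), log2 CPM minus the gene's mean over the 6 libraries, with the median as a black line. WT libraries are blue and M92KO libraries orange; M92KO library 1 has the highest share, 1.305%, and the highest median, 0.17, while the other 5 medians lie between -0.05 and -0.01.

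With all libraries, the members differed little between the genotypes. edgeR's quasi-likelihood test with Benjamini-Hochberg adjustment over all 15788 genes called 0 of the 81 members (0.0% of all genes tested), and DESeq2's Wald test called 0 members among the 312 genes it called. The smallest adjusted p of a member was 0.299 and the largest 0.996. At an unadjusted p under 0.05, 4 members (4.94%) were higher in M92KO muscle, where 5.47% of all genes were, and 0 were lower, where 6.92% of all genes were. All 3 M92KO values lay above all 3 WT values in 10 members (12.3%, against 8.77% of all genes) and below them in 0 (against 9.58%).

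The log2 fold changes (M92KO minus WT) of the 81 members ran from -0.41 (Rps27a) to 0.29 (Rps27), and 75 of them were smaller than 0.2 in size. Their median was 0.07, against -8.07e-05 for all genes tested, and 72 members lay above 0. Without M92KO library 1 the median was 0.01, against -0.01 for all genes, and 44 members lay above 0. The subunits had like values, with a median of 0.07 and 44 of 49 members above 0 in the large subunit and a median of 0.07 and 28 of 32 above 0 in the small subunit. Without that library, the medians were -0.0039 and 0.0097, with 24 of 49 and 20 of 32 members above 0. The 95% interval of the log2 fold change lay within -0.5 and 0.5 for 75 members and within -0.25 and 0.25 for 32 of these.

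**Figure D2:**
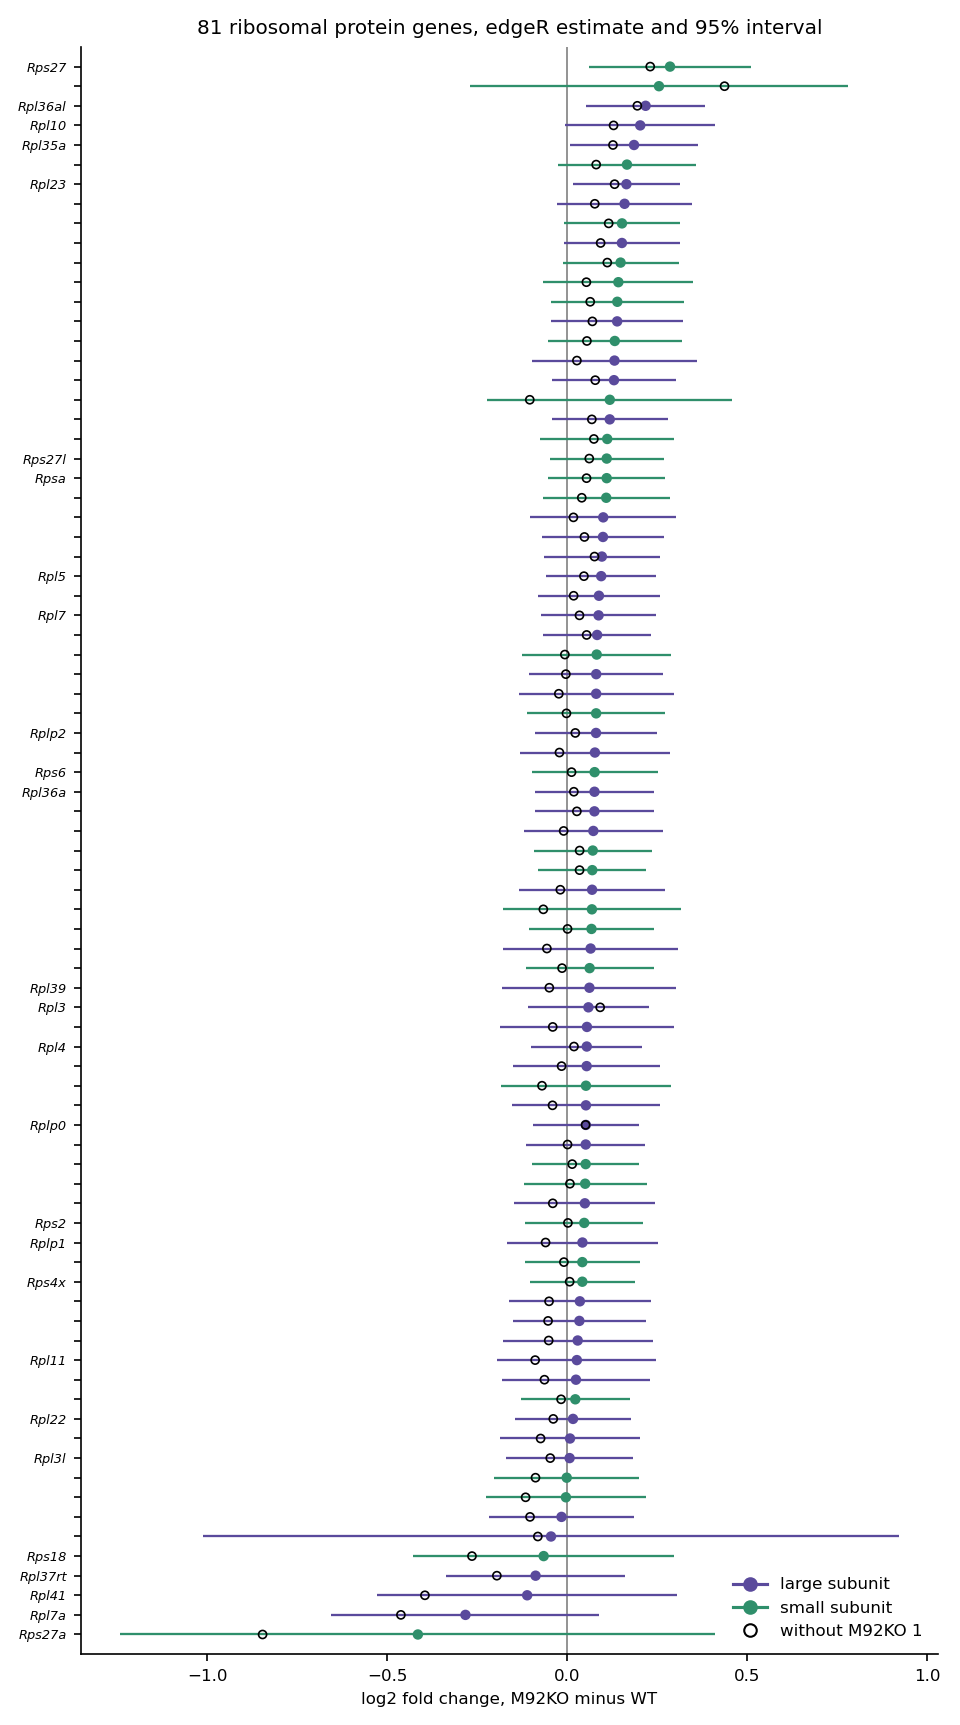
The log2 fold change of each of the 81 tested members (M92KO minus WT, x axis; 27 are labelled) is shown as a filled point with its 95% interval from edgeR, ordered by size, and the estimate without M92KO library 1 as an open circle. The intervals of 77 members cover 0, and the open circles lie on both sides of 0 (44 above, 37 below).

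Without M92KO library 1, 16058 genes were tested with edgeR. Of the members, 3 were then higher and 4 lower at an unadjusted p under 0.05, where 9.62% of all genes were higher and 8.96% were lower. Rpl23, Rpl36al and Rps27 were the higher ones and Rpl41, Rpl7a, Rps18 and Rps27a the lower ones. One member, Rpl41, passed the adjustment (log2 fold change -0.40, adjusted p = 0.0324), among 401 genes that did so in all (2.50%).

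The stalk of the large subunit, which calls the elongation factors to the ribosome, is built from Rplp0 and pairs of Rplp1 and Rplp2 on a base that includes Rpl12. Rplp0 was at 533, 509 and 538 CPM in WT and at 546, 547 and 544 CPM in M92KO muscle. It was the steadiest member between libraries of a group, and its groups did not overlap, yet its log2 fold change was only 0.05 ± 0.06 (SE, adjusted p = 0.802). Rplp1 was at 216, 213 and 228 CPM in WT and at 256, 206 and 215 CPM in M92KO muscle (log2 fold change 0.04, and -0.06 without M92KO library 1). Rplp2 was at 126, 120 and 116 CPM in WT and at 137, 120 and 125 CPM in M92KO muscle (0.08). Rplp1 and Rplp2 thus overlapped between the groups, and both had their highest value in M92KO library 1. Of the 4 stalk genes, 0 passed at an unadjusted p under 0.05, where 5.47% of all genes were higher and 6.92% lower. At these shares, 0 of 4 says little about the stalk.

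Rpl5 and Rpl11 enter the large subunit together with the 5S rRNA, and are the members that bind Mdm2 when free. Rpl5 was at 170, 174 and 171 CPM in WT and at 195, 175 and 180 CPM in M92KO muscle, without overlap (log2 fold change 0.09, adjusted p = 0.633). Rpl11 was at 99.4, 100.1 and 104.6 CPM in WT and at 119, 92.7 and 97.9 CPM in M92KO muscle, with both other M92KO libraries below every WT library. Its log2 fold change was 0.03, and -0.09 without M92KO library 1, so that its direction rested on that library. Of the genes for the quality control of ribosomal proteins and for p53, 9 were tested, and Trp53 itself had a log2 fold change of 0.15 (adjusted p = 0.476). Cdkn1a, the p53 target that stops the cell cycle, was the 1 gene of the 9 with an unadjusted p under 0.05, at 47.1 ± 20.1 CPM in WT and 26.7 ± 7.34 CPM in M92KO muscle (SD, n = 3), with overlapping groups (log2 fold change -0.82, adjusted p = 0.336). Without M92KO library 1, 1 of the 9 was higher and 1 lower. Among all genes, 5.47% were higher and 6.92% lower, and without that library 9.62% and 8.96%.

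In the small subunit, Rps2 lies where the mRNA enters, Rpsa near where it leaves, and Rps6 is the member that S6 kinase phosphorylates. Rps2 was at 528, 510 and 542 CPM in WT and at 578, 524 and 531 CPM in M92KO muscle (log2 fold change 0.05, and 0.00 without M92KO library 1). Rpsa was at 321, 325 and 330 CPM in WT and at 378, 334 and 341 CPM in M92KO muscle. Every M92KO value of Rpsa lay above every WT value, with a log2 fold change of 0.11 ± 0.07 (SE, adjusted p = 0.595). Rps6 was at 188, 187 and 202 CPM in WT and at 220, 194 and 194 CPM in M92KO muscle, with overlap (0.08, adjusted p = 0.744). Rps4x, which is encoded on the X chromosome, was at 222, 228 and 227 CPM in WT and at 244, 227 and 226 CPM in M92KO muscle (0.04, adjusted p = 0.840). Of 9 tested members on the mRNA path and in the decoding centre, 0 passed at an unadjusted p under 0.05. Over all genes, 5.47% were higher and 6.92% lower at that threshold, so 0 of 9 is close to those shares. The median log2 fold change of these 9 members was 0.08, or 0.00 without M92KO library 1.

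The members whose proteins line the exit tunnel of the large subunit had like values. Their median log2 fold change was 0.06 (0.02 without M92KO library 1). Of 9 such members, 0 passed at an unadjusted p under 0.05, where 5.47% of all genes were higher and 6.92% lower. At these shares, 0 of 9 says little about the tunnel. Rpl4, whose long loop reaches into the tunnel, was at 452, 449 and 462 CPM in WT and at 494, 452 and 469 CPM in M92KO muscle (log2 fold change 0.05, adjusted p = 0.800). Among the members that join the ribosome late, Rpl10, the last to be placed before the large subunit may work, was at 141, 154 and 162 CPM in WT and at 193, 175 and 158 CPM in M92KO libraries. Its log2 fold change was 0.20 ± 0.09 (SE, adjusted p = 0.418), and its highest WT value exceeded its lowest M92KO value. The 18 members whose loss of a copy causes Diamond-Blackfan anaemia in people held 2 of the 4 members higher at an unadjusted p under 0.05, Rps27 and Rpl35a, and their median was 0.07 (1 higher and a median of 0.02 without M92KO library 1). Among all genes, 5.47% were higher at that threshold, and 9.62% without that library.

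The 4 members with an unadjusted p under 0.05 were all small differences. Rps27, a zinc-finger protein of the small subunit, was at 61.6, 59.4 and 52.9 CPM in WT and at 75.9, 74.5 and 61.5 CPM in M92KO muscle, where the lowest M92KO value was just under the highest WT value. Its log2 fold change was 0.29 ± 0.10 (SE, adjusted p = 0.314). Rpl36al was at 53.7, 52.8 and 58.6 CPM in WT and at 66.0, 65.8 and 60.3 CPM in M92KO muscle, without overlap. It had the smallest p of the family (log2 fold change 0.22 ± 0.07, SE, adjusted p = 0.299). Rpl23 was at 76.9, 76.1 and 80.1 CPM in WT and at 91.0, 86.6 and 83.6 CPM in M92KO muscle, again without overlap (0.16 ± 0.06, SE, adjusted p = 0.365). Rpl23 is, like Rpl5 and Rpl11, known to bind Mdm2. Rpl35a was at 42.6, 46.7 and 42.3 CPM in WT and at 53.8, 49.2 and 46.6 CPM in M92KO muscle, where the lowest M92KO value fell just under the highest WT value (0.19 ± 0.08, SE, adjusted p = 0.390). Rpl35a was not past the unadjusted threshold without M92KO library 1, while the other 3 were. With offsets for the libraries' trends with GC content and length, 0 members were higher at that threshold.

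Among the other members without overlap were Rps24 and Rpl24, named after their values were seen. Rps24 was at 221, 230 and 236 CPM in WT and at 267, 258 and 238 CPM in M92KO muscle (log2 fold change 0.15, adjusted p = 0.434). Rpl24 was at 191, 191 and 194 CPM in WT and at 230, 207 and 203 CPM in M92KO muscle (0.15, adjusted p = 0.435). For single genes such as these, an exact permutation test of 3 against 3 mice could give no two-sided p below 0.1. Rpl7 and Rps27l also had no overlap, with smaller log2 fold changes (0.09 and 0.11).

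A few members varied between mice far more than the rest of the family. The pooled SD of log2 CPM within groups had a median of 0.10 over the members, the same as for the 6596 genes tested with a mean over 20 CPM (0.10). It was above 0.3 for 4 of the 81 members, a smaller share than the 22.2% of all genes tested. These were Rpl17 (0.73), Rps27a (0.65), Rps27rt (0.38) and Rpl41 (0.30), and next came Rpl7a (0.27) and Rps18 (0.26). Rps27a, made as a fusion of ubiquitin with the ribosomal protein, was at 91.0, 114 and 45.5 CPM in WT and at 95, 46.2 and 46.7 CPM in M92KO muscle. The 6 mice fell into a high and a low level, with mice of both genotypes in each. The log2 fold change of Rps27a was the lowest of the family (-0.41, 95% interval -1.24 to 0.41), and -0.85 without M92KO library 1. Rpl17, which sits at the mouth of the tunnel, was at 21.1, 22.9 and 64.2 CPM in WT and at 36.7, 45.7 and 22.6 CPM in M92KO muscle (-0.05, interval -1.01 to 0.92).

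Rpl7a was at 82.4, 90.5 and 114 CPM in WT and at 97.0, 74.0 and 65.1 CPM in M92KO muscle (log2 fold change -0.28, adjusted p = 0.540, and -0.46 without M92KO library 1). Rpl41, the smallest ribosomal protein, was at 93.8, 100.1 and 87.5 CPM in WT and at 118, 70.5 and 72.1 CPM in M92KO muscle. M92KO libraries 2 and 3 were thus below and library 1 above all WT libraries, which is why its estimate moved from -0.11 (adjusted p = 0.854) to the call given above without that library. Rps18 followed the same pattern less fully, at 64.5, 69.0 and 76.4 CPM in WT and at 84.1, 51.5 and 64.9 CPM in M92KO muscle (-0.07, adjusted p = 0.909). Rps27rt was at 10.3, 13.1 and 14.1 CPM in WT and at 10.9, 12.9 and 20.8 CPM in M92KO muscle, with only M92KO library 3 above the WT range.

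**Figure D3:**
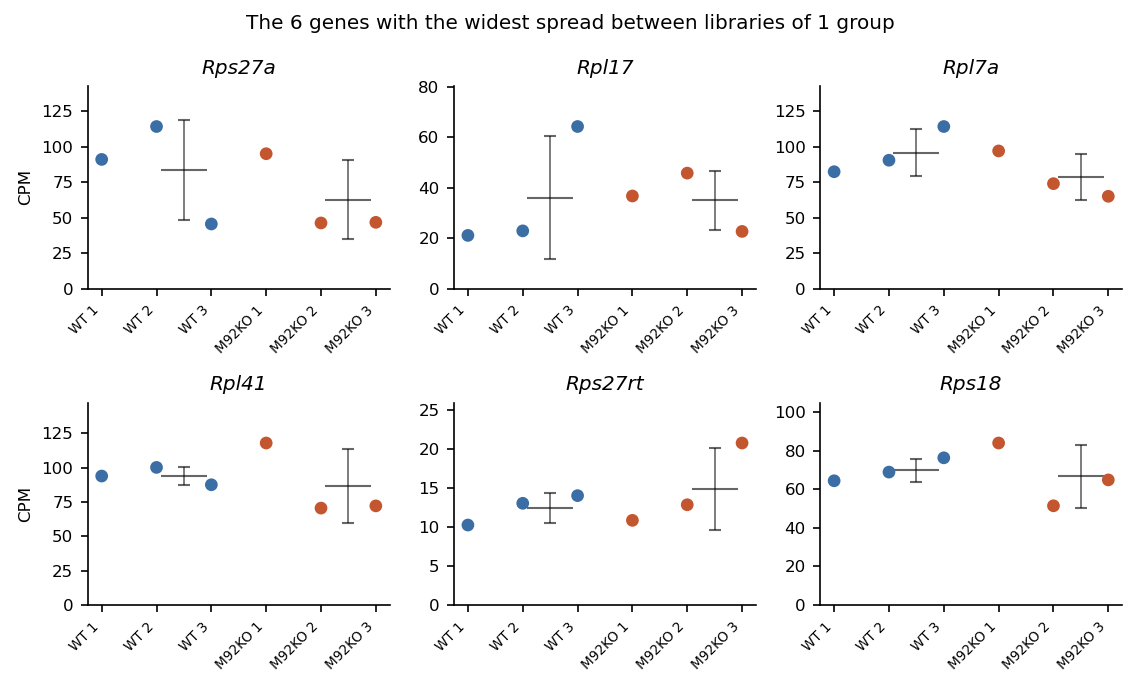
CPM in each library (points, WT blue and M92KO orange) of the 6 members with the largest pooled SD of log2 CPM, with the mean and SD of each group of 3 mice in black and axes that start at 0. Rps27a has 3 mice between 91.0 and 114 CPM and 3 between 45.5 and 46.7 CPM, with both genotypes in each, and Rpl17 has its highest value, 64.2 CPM, in WT 3.

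Ribosomal protein genes have many processed copies in the genome, and how the authors' counting treated reads that match several places is not given in the sources used here. In GENCODE M21 transcripts, a median of 53.6% of the 50-base stretches of a member's transcript also occurred in a transcript of another gene. For 50 of the 84 members this was over 50% and for 7 over 90%, while Rpl3l and Rpl39l were among the members that shared none. Rps27 shared the most, 98.7%, with 9 other genes that include Rps27rt. Of the members that varied most, Rpl7a shared 81.2% of its stretches and matched 121 pseudogenes, Rpl17 shared 78.7% and matched 50, and Rps27a shared 71.9% and matched 14. Rpl3 shared 85.6% and Rps18 86.7%, while Rpl41 shared 42.0%. The values of members with shared stretches are uncertain to that extent, and the part of sharing in the spread between libraries was not tested. Exons of 18 members also overlap those of another gene, among them Rps27a with Clhc1, Rpl5 with Fam69a and Rpl36al with Gm49383, and reads of such partners may be counted with either gene.

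Although each ribosome carries most of these proteins at 1 copy, their mRNA levels were far apart. Per kilobase of transcript, WT levels of the 81 members ran from 17.2 to 504 CPM per kb, with a median of 142 and quartiles of 98.5 and 206. The median was 124 CPM per kb for the large and 149 for the small subunit. The highest WT levels per kb were those of Rps2 (504), Rplp1 (439), Rpl3l (438) and Rplp0 (388). Rpl21 was lowest at 17.2 CPM per kb, and is named, like the other end of the order, after the levels were seen. Both Rpl17 (34.3 CPM per kb) and Rps27rt (33.3) were near that end. These levels depend on the annotated transcript length and on reads shared with copies.

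**Figure D4:**
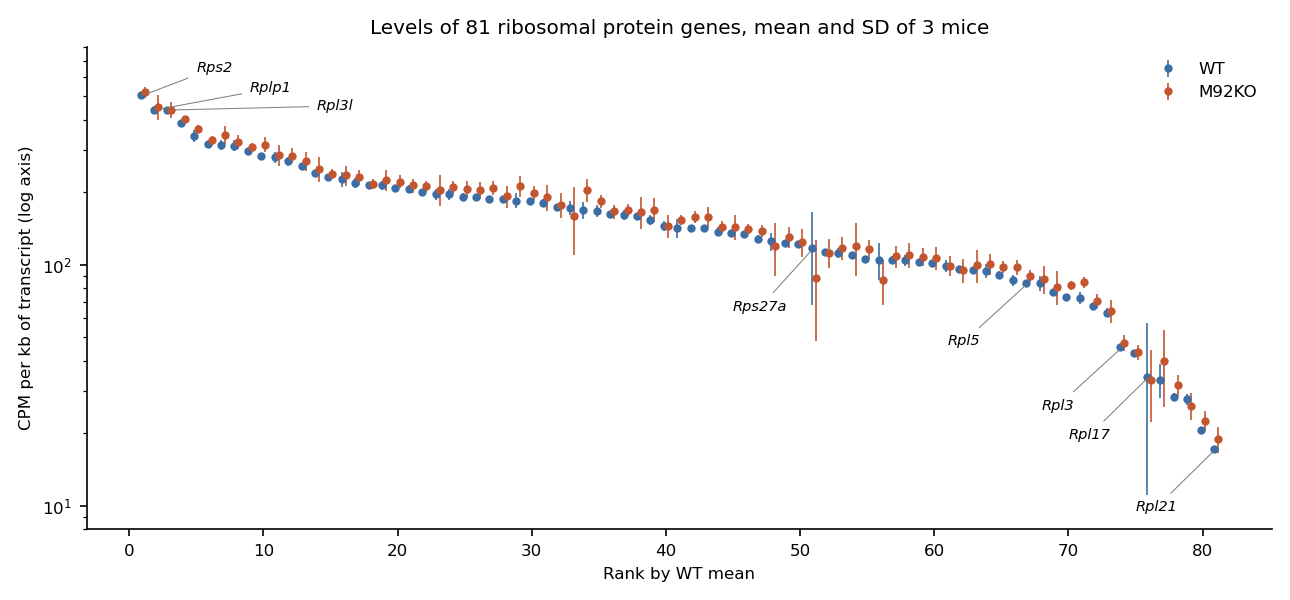
Levels of the 81 tested members in CPM per kb of transcript (log axis), ordered by the WT mean, with points for the mean and bars for the SD of 3 WT (blue) and 3 M92KO (orange) mice. WT means run from 504 (Rps2) to 17.2 (Rpl21), the M92KO points follow the same order closely, and Rps27a and Rpl17 have the widest bars.

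The muscle paralogue Rpl3l was the member with the most counts. It was at 598, 593 and 616 CPM in WT and at 649, 557 and 609 CPM in M92KO muscle, so the groups overlapped (log2 fold change 0.01, 95% interval -0.17 to 0.18, adjusted p = 0.983, and -0.05 without M92KO library 1). It alone took 5.27% ± 0.046 of the counts of all members in WT and 5.05% ± 0.187 in M92KO muscle (SD, n = 3). Rpl3, the form found in most tissues, was at 62.5, 60.8 and 60.9 CPM in WT and at 61.0, 69.7 and 61.2 CPM in M92KO muscle (0.06, adjusted p = 0.801). The number of Rpl3l counts for each Rpl3 count was 9.57, 9.76 and 10.1 in WT and 10.6, 8.00 and 9.95 in M92KO muscle. The M92KO values lay on both sides of the WT values, and the log2 ratio differed by -0.05 (exact two-sided permutation test, p = 0.9). Per kb, Rpl3l counts were 9.64-fold above those of Rpl3 in WT and 9.30-fold in M92KO muscle, a like ratio in both. Rpl3 shared 85.6% of its 50-base stretches with other genes and Rpl3l 0%. Since the handling of such reads is not known, the size of this ratio is uncertain.

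Other paralogues gave less to their pair, and 7 ratios were compared in all, of which those of Rps27rt and Rpl37rt were added after values were seen. Rpl36al had 1.67, 1.62 and 1.79 counts for each count of Rpl36a in WT and 1.79, 2.03 and 1.8 in M92KO muscle. This ratio was higher in every M92KO library, at the closest by less than the digits printed here (difference of log2 ratios 0.14, exact permutation p = 0.1, the smallest this design can give, 0.35 after adjustment over the 7 ratios). Rpl36a itself had a log2 fold change of 0.08. Rps27l, a paralogue that p53 induces, had 1.02, 1.05 and 1.26 counts for each count of Rps27 in WT and 0.97, 0.90 and 1.08 in M92KO muscle, with overlap (-0.17, exact permutation p = 0.3). Rpl7l1, a nucleolar relative of Rpl7, had 0.20, 0.20 and 0.20 counts for each count of Rpl7 in WT and 0.173, 0.193 and 0.185 in M92KO muscle, lower in every M92KO library (-0.13, exact permutation p = 0.1, adjusted 0.35). Rpl22l1, which can stand in for Rpl22, had between 0.649 and 0.693 counts for each count of Rpl22 in WT and between 0.554 and 0.671 in M92KO muscle (-0.12, exact permutation p = 0.3).

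For the near copies Rps27rt and Rpl37rt the groups overlapped in the ratio to the common form. Rps27rt had between 0.167 and 0.266 counts for each count of Rps27 in WT and between 0.143 and 0.338 in M92KO muscle (difference of log2 ratios -0.07, exact permutation p = 0.9, and 0.18 without M92KO library 1). Rpl37rt had between 0.180 and 0.220 counts for each count of Rpl37 in WT and between 0.159 and 0.190 in M92KO muscle (-0.14, exact permutation p = 0.4), and its own log2 fold change was -0.09 (adjusted p = 0.800). Rpl22 and Rpl39 differed by 0.02 and 0.06 on the log2 scale, with a sign that changed without M92KO library 1 for both.

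**Figure D5:**
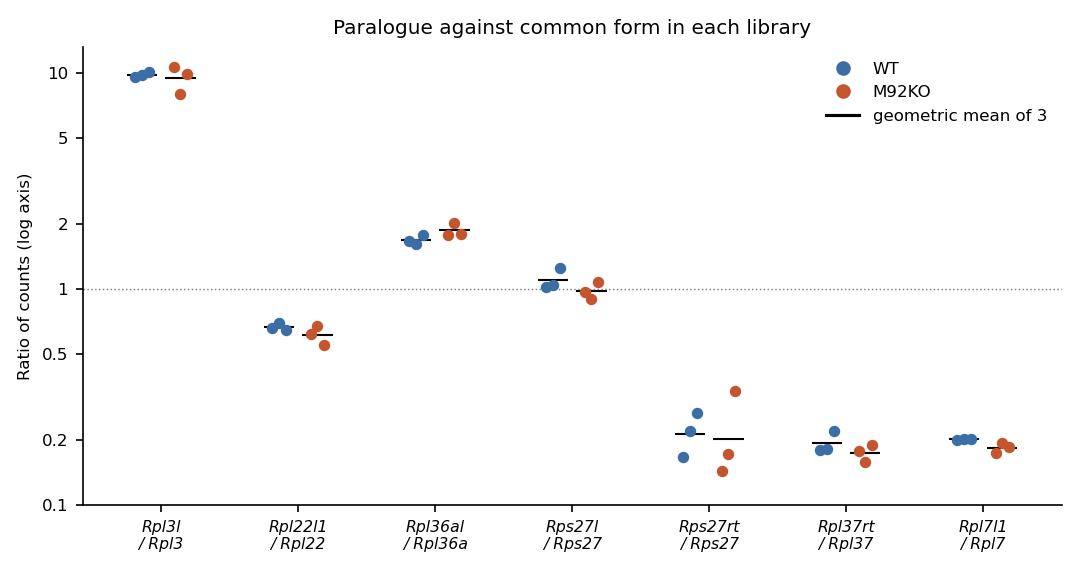
Ratio of the counts of a paralogue to those of its common form in each library (log axis), with WT in blue, M92KO in orange and the geometric mean of each group of 3 mice as a black line. The ratio of Rpl3l to Rpl3 lies between 8.00 and 10.6 in all 6 libraries, and the groups do not overlap for Rpl36al to Rpl36a (higher in M92KO) and Rpl7l1 to Rpl7 (lower in M92KO).

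The 3 members that the filter removed are paralogues with few or no reads in this muscle, of which Rpl10l and Rpl39l are known from the testis. Rpl10l had 0 counts in all 6 libraries, where a floor of 3 counts came to between 0.0629 and 0.0916 CPM. Rpl39l was counted 7, 11 and 0 times in WT and 7, 2 and 4 times in M92KO muscle. Rpl32l was counted 2, 2 and 3 times in WT and 2, 0 and 0 times in M92KO muscle, at or under the floor in each library. Their common forms Rpl10, Rpl39 and Rpl32 were at 152, 58.3 and 79.7 CPM in WT muscle.

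Of 5 ribosomal proteins and paralogues outside the name rule, 0 passed at an unadjusted p under 0.05. Among all genes, 5.47% were higher and 6.92% lower at that threshold. The median log2 fold change of these 5 was 0.00 with 3 of 5 above 0, against 0.07 and 72 of 81 for the members. Rpl22l1 was at 58.4 ± 1.95 CPM in WT and 54.4 ± 5.33 CPM in M92KO muscle (SD, n = 3, -0.10, adjusted p = 0.680). Rpl7l1 was at 48.7 ± 0.84 and 47.1 ± 0.86 CPM, with every M92KO value below every WT value (-0.05, adjusted p = 0.796). Rack1, the scaffold on the head of the small subunit, was at 238 ± 6.29 CPM in WT and 249.8 ± 27.1 CPM in M92KO muscle (SD, n = 3, log2 fold change 0.07). Fau, made as a fusion with a ubiquitin-like protein, was at 76.2 ± 0.80 CPM and 78.5 ± 9.74 CPM (0.04). Rack1 and Fau lay below 0 without M92KO library 1 (-0.03 and -0.06). Rps3a1, the row for a further small subunit protein that was added after values were seen, had a log2 fold change of 0.00 (adjusted p = 0.994).

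Other mRNAs with a TOP tract, mainly translation factors, also differed little. This list also holds Rack1, given above. Of 23 tested, 1 was higher at an unadjusted p under 0.05 and 0 were lower, with a median log2 fold change of 0.07 (3 higher, 0 lower and a median of 0.03 without M92KO library 1). Among all genes, 5.47% were higher and 6.92% lower (9.62% and 8.96% without that library). With all libraries, the 1 gene was Npm1, a nucleolar chaperone of ribosome assembly, at 89.3 ± 3.29 CPM in WT and 100.1 ± 2.39 CPM in M92KO muscle (SD, n = 3, 0.17, adjusted p = 0.352). Of the 23, 19 had a log2 fold change above 0, among them Naca (0.13) and Eif4b (0.12). Eef1a1 and Eef1a2, which bring tRNA to the ribosome, and Eef2, which moves it along, were below 0, at -0.09, -0.09 and -0.08. In M92KO library 1 the median deviation of these 23 genes was 0.10, below the 0.17 of the members.

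Of 50 factors that assemble ribosomes, 4 were higher and 1 was lower at an unadjusted p under 0.05, where 5.47% of all genes were higher and 6.92% lower, and 0 passed the adjustment. Their median log2 fold change was 0.02. Without M92KO library 1, 5 were higher and 5 lower, 1 passed the adjustment, and the median was 0.00. Among all genes without that library, 9.62% were higher, 8.96% were lower and 2.50% passed the adjustment. Rrp12, needed for the export of both subunits, had the lowest p, at 76.6 ± 1.01 CPM in WT and 101 ± 15.6 CPM in M92KO muscle (SD, n = 3, 0.40, adjusted p = 0.215). Rpf2, which brings the 5S particle with Rpl5 and Rpl11 into the large subunit, was at 13.7 ± 0.47 and 16.5 ± 1.1 CPM (0.27, adjusted p = 0.287), and Nop58, a core protein of box C/D particles, at 18.6 ± 0.56 and 15.8 ± 0.39 CPM (-0.24, adjusted p = 0.285). All 3 were without overlap between the groups.

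Of 15 genes for RNA polymerase I and its factors, which make the rRNA, 0 passed in either direction, and Polr1e was nearest (log2 fold change 0.27, adjusted p = 0.413). Of 25 regulators of TOP mRNAs and ribosomal protein genes, 1 was higher and 1 was lower at an unadjusted p under 0.05. Without M92KO library 1, 4 were higher, 3 were lower and 1 passed the adjustment. Among all genes, 5.47% were higher and 6.92% lower, and without that library 9.62% and 8.96%, with 2.50% past the adjustment. With all libraries, the higher one was Cnbp, which binds the start of TOP mRNAs, at 723 ± 15.8 CPM in WT and 823 ± 24.6 CPM in M92KO muscle (0.19, adjusted p = 0.334). The lower one was Mxd4, an antagonist of Myc, at 19.4 ± 1.13 and 15.3 ± 2.38 CPM (-0.35, adjusted p = 0.317). Mtor had a log2 fold change of 0.21 (adjusted p = 0.488).

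Few members hold a possible pairing site of the deleted miRNA. The mature miR-92b sequences of RefSeq are shown with the seed, bases 2 to 8, in capitals, since the seed is the part by which a miRNA finds its targets.
miR-92b-3p: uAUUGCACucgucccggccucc
miR-92b-5p: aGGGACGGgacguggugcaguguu
Annotated 3′-UTRs were searched for GTGCAAT or TGCAATA (3p) and for CCGTCCC or CGTCCCA (5p). Of 82 members with a 3′-UTR of at least 20 bases, 6 held a 3p match (7.32%, against 13.4% of 20414 genes), and 1 held a 5p match (1.22%, against 4.53%). These shares were not corrected for the length of the 3′-UTRs. The transcripts of the tested members are short (median 777.5 bases, against 2814 for all genes tested), so lower shares do not show that matches are depleted. The members with a 3p match were Rpl13, Rpl15, Rps24, Rps23, Rps20 and Rpl37a, with log2 fold changes of 0.05, 0.10, 0.15, 0.08, 0.17 and 0.03. Without M92KO library 1, Rpl13, Rps23 and Rpl37a were at -0.02, -0.01 and -0.05 and the other 3 were above 0. With all libraries, the values lie within the range of the other members, and 0 of the 6 had an adjusted p under 0.05. They are named as holders of a match and not for their values.

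Markers of other cells in the muscle were compared because ribosomal protein mRNAs differ in abundance between cell types. The 8 satellite cell markers summed to between 2132 and 2237 CPM in WT and between 2502 and 2611 CPM in M92KO libraries, mostly from Des, which fibres also express, and 3 were higher and 2 lower at an unadjusted p under 0.05. The 8 fibroblast markers summed to between 2044 and 2610 CPM in WT and between 1573 and 2034 CPM in M92KO muscle, with 0 higher and 2 lower. Endothelial markers summed to between 964 and 1052 CPM and between 867 and 1051 CPM, and macrophage and leukocyte markers to between 89.4 and 96.5 CPM and between 66.2 and 95.3 CPM, each with 1 of 8 tested lower. Of the 6 Schwann cell markers 3 were lower, with sums between 132 and 181 CPM in WT and between 132 and 138 CPM in M92KO muscle. Fat and red cell markers had 0 of 6 and 0 of 5 past the threshold, yet all 6 and all 5 had log2 fold changes above 0. Their medians were 0.73 and 0.66 (0.85 and 0.52 without M92KO library 1). Fat cell markers summed to between 313 and 364 CPM in WT and between 313 and 392 CPM in M92KO muscle. Red cell markers summed to between 74.0 and 223 CPM and between 143 and 336 CPM, so both sums overlapped between the groups. Over all genes tested, 5.47% were higher and 6.92% lower at that threshold. Without M92KO library 1 these shares were 9.62% and 8.96%, and 2.50% of all genes passed the adjustment. Without M92KO library 1, 1 Schwann cell and 1 fibroblast marker were lower, 1 macrophage and leukocyte marker was higher and 1 lower, 1 fibre marker was lower, and of the satellite cell markers, 3 higher and 2 lower as before, 1 passed the adjustment. No marker with a row was at 0 in these lists, and the part of cell make-up in the levels of the members was not tested.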

How the data were processed

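RNA of 6 Gas muscles was sequenced from libraries made with a SMARTer mRNA kit. The authors deposited raw, unnormalized counts of reads for 34714 gene symbols. The submitters' processing notes name GRCm38 and mm10. The aligner, the counting program, its strandedness and the annotation are not given in the sources used here. The counts were fitted with edgeR 4.0.16 under R 4.3.3. filterByExpr (minimum count 10, minimum total 15) kept 15788 genes, libraries were scaled with TMM, and the genotypes were compared by glmQLFit and glmQLFTest, with no covariate. The Benjamini-Hochberg adjustment ran over every gene tested. SE is the size of the log2 fold change divided by the square root of F, and 95% intervals use the t distribution with the model's degrees of freedom. Levels are CPM from TMM-scaled library sizes, as mean ± SD over 3 mice. Library totals are given with the results, and a floor of 3 counts covers counting error only.

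The members and all gene lists were chosen with earlier results of these data known. The genes named are members with a paralogue, Rplp0, Rplp1, Rplp2, Rpsa, Rps6, Rpl5, Rpl11, Rps27a, the 5 members with the smallest p in each direction, the 5 with the highest mean CPM, members removed by the filter, and up to 3 genes in each direction of the other lists. Some genes that it selects are left out of the text. Others are named as chosen after their values were seen. Positions, lengths, GC content, 3′-UTRs and shared stretches of 50 bases came from GENCODE M21, where 25731 symbols matched, another 433 through a synonym, and 8550 had no match. Starts, promoters and miRNAs came from RefSeq (GRCm38.p6), which held promoters of 64 members. Ratios of paralogues were compared with an exact two-sided permutation test, whose smallest p is 0.1.

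The fit was repeated with size factors from DESeq2, with TMM without the members, DESeq2's Wald test (DESeq2 1.42.0), the supplementary methods' own steps (quantile normalization, log2 after adding 1, limma 3.58.1), no filter, at least 10 counts in every library, the replicate number as a block, offsets for GC content and length (lowess span 0.3) with and without the block, each library left out, and thinning to the smallest total. Python 3.11.15 (pandas 2.3.3, numpy 2.4.6, matplotlib 3.10.9, scipy 1.17.1) made the tables and figures.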

Additional observations from a re-analysis of the deposited data

How the results depend on the processing

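With edgeR and DESeq2's size factors, TMM without the members, at least 10 counts in every library or thinning, and with DESeq2's Wald test, 4 members were past an unadjusted p of 0.05, and without a filter 3. These were not always the same members. Rpl35a was not past it with the Wald test or thinning, and Rpl10 was with the Wald test. It was 1 member with the steps of the supplementary methods, 2 with the replicate block, 1 with GC and length offsets (0 higher and 1 lower, Rpl7a) and 1, higher, with both offsets and block. Among all genes, 12.3% were past it in either direction with DESeq2's size factors, and 12.4% with TMM without the members. This share was 12.7% with at least 10 counts, 12.1% with thinning, 10.9% with the Wald test and 9.5% without a filter. With the supplementary steps (34714 rows) the share was 6.59%, with the block 10.7%, with the offsets 13.1% and with both 10.8%. Leaving out 1 library gave 1 to 10 members (1 to 10 higher, 0 to 4 lower) and 0 to 1 past the adjustment. The number was 1 without WT 1, 2 without WT 2, 7 without M92KO 1 (3 higher, 4 lower, 1 adjusted) and 10 without M92KO 3, where 4.64% of all genes were higher (4.16%, 3.32% and 3.46% without WT 1, 2 and 3, 9.62% and 4.38% without M92KO 1 and 2). Without WT 3 Rps27a was past it as the 1 lower member, where 4.49% of all genes were lower, and without M92KO 1 8.96% of all genes were lower. The median log2 fold change was 0.01 to 0.12 when 1 library was left out, 0.05 with the supplementary steps and 0.01 with the offsets. The share of counts differed by 0.034 percentage points (M92KO minus WT), and by -0.025 to 0.066 with 1 library left out. The log2 ratio of Rpl3l to Rpl3 differed by -0.14 to 0.07, above 0 only without M92KO 2 (0.069), and by -0.05 under the block of paired differences. Same-numbered libraries deviated with correlations of 0.081, 0.038 and 0.015, so the replicate numbers were not taken as pairs.

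Signs changed for members close to 0. With the supplementary steps, the log2 fold change was -0.00602 for Rpl11, -0.050 for Rpl3l, -0.0086 for Rpl4, -0.0092 for Rplp0 and -0.014 for Rps2. With the offsets it was -0.041 for Rpl11, -0.0092 for Rpl39, -0.038 for Rpl3l, -0.039 for Rplp1, -0.00055 for Rplp2, -0.010 for Rps2 and -0.013 for Rps4x, and with offsets and block -0.043, -0.015, -0.038, -0.038, -0.00018, -0.010 and -0.013. With 1 library left out, the ranges that crossed 0 were -0.0892 to 0.0979 for Rpl11, -0.0389 to 0.0599 for Rpl22, -0.00765 to 0.0914 for Rpl3, -0.0498 to 0.169 for Rpl39, -0.0473 to 0.0617 for Rpl3l, -0.395 to 0.0174 for Rpl41, -0.0602 to 0.104 for Rplp1 and -0.265 to 0.0902 for Rps18. The causes were not tested. Of the values under alternatives, 364 kept direction and side of the threshold, 30 changed sign, and 28 lost and 10 gained the threshold. The limits are the 3 mice in each group, the single source of each genotype, M92KO library 1, and reads that several copies of a gene share.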
